A study of Arabidopsis thaliana with 21 samples.

Results

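The genes described here are 38 loci of Arabidopsis thaliana that build iron-sulfur clusters and hand them to proteins. They were chosen by locus identifier from a table of 32833 genes, by a rule that uses no measured value, although earlier results of these data were known when the list was drawn up: 15 for the plastid, 15 for the mitochondrion and 8 for the cytosol. RNA had been sequenced from complete seedlings, 7 days old and frozen straight from liquid MS culture with no further treatment. The groups were the wild type Col, 3 lines named for AtNEET (NEET10-10, NEET11-9 and NEET5-4) and 3 lines named for AtNEET with histidine 89 changed to cysteine (H89C11-7, H89C23-10 and H89C4-7), with 3 libraries in each of the 7 groups. The series title calls the H89C protein dominant-negative and names iron-sulfur metabolism and iron homeostasis as its subject. The labels state no promoter, tag or insertion site for the lines, and do not say how many insertions a line carries or whether its libraries came from separate cultures.

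Iron-sulfur clusters are cofactors of electron transport, of several metabolic enzymes and of DNA repair and replication proteins. In plants the plastid SUF system and the mitochondrial ISC system each draw sulfur from cysteine with a desulfurase, build a cluster on a scaffold and pass it on through carrier proteins. The cytosolic CIA system depends on an export step from the mitochondrion and loads cytosolic and nuclear proteins. AtNEET is itself a cluster-binding protein, and NEET proteins are known to be able to give their cluster away.

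Recovered library totals ran from 17.88 to 24.68 mega (M) reads, except for Col replicate 3 with 8.24 M. Values are normalized counts, meaning reads divided by 1 size factor per library. Col replicate 1 and NEET10-10 replicate 1 differed most from their fellow replicates: chi-square divided by its degrees of freedom was 8.17 to 15.1 and 8.91 to 11.2 for pairs with them, and 1.41 to 2.80 for every other pair. AtNEET (AT5G51720) had normalized counts of 186 to 367 in Col, 327 to 338 in NEET11-9, 1225 to 1373 in H89C23-10, 2282 to 2499 in H89C11-7, 15072 to 16707 in H89C4-7, 17667 to 18723 in NEET5-4 and 30642 to 33997 in NEET10-10. The NEET11-9 libraries lay inside the range of Col through Col replicate 1 (367) alone, and above Col replicates 2 and 3 (186 and 230). Their mean was called higher (limma log2 change 0.40 ± 0.127, adjusted p = 0.0404). The other 5 lines lay above every Col library. All 5 shoot markers and all 5 root markers were found in every group. The summed shoot markers were 706000 to 753100 in Col, 747500 to 762900 in NEET11-9 and 513900 to 699800 in the other 5 lines. Summed seed storage markers were 4.90 to 136 in Col, with 2 of 5 at 0 in all libraries, 53.9 to 383 in the H89C lines and 8.17 to 40.5 in the NEET lines. In RNA from whole seedlings, fewer cells of a type and less RNA per cell cannot be told apart.

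Of the 38 genes, 36 reached a normalized count of 10 in 3 or more libraries and were tested. The scaffold gene ISU2 (AT3G01020) and SUFE1 (AT4G26500), an activator of cysteine desulfurase, were listed at 0 in all 21 libraries. All 1444 exon bases of SUFE1 are covered by AT4G26510 on the opposite strand, and that gene held 641 to 844. Of 368 protein-coding genes whose exons are wholly covered by other genes, 351 (95.4%) were at 0 in every library, against 2322 of 19821 (11.7%) with no overlap. The level of SUFE1 can therefore not be read from these values. Exons of 15 of the 38 genes overlap another gene. After SUFE1 the largest shares were 35.7% for SUFA1, 32.7% for MFDX1, 30.4% for HSCB and 29.7% for NFU1. GRXS15 followed with 24%, NFU5 with 23.7% and INDH with 19.1%. The strand setting of the counting is not given in the sources used here.

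The first question was which lines differ from Col. Calls are at an adjusted p under 0.05 (limma on log2(normalized count + 1), Benjamini-Hochberg over 20699 genes). In H89C4-7, 25 of 36 genes were called, 24 higher and 1 lower, where 66.6% of all tested genes were called, 33.6% higher and 33% lower. The median log2 change of the 36 genes was 0.304. In H89C11-7, 16 were called, 13 higher and 3 lower, against 37.7% of all genes (19.8% higher and 17.9% lower), and the median was 0.099. In H89C23-10, 9 were called, 8 higher and 1 lower, against 22.1% of all genes (11.5% higher and 10.5% lower), and the median was 0.004. The share called was thus near that of all genes in each H89C line, while the called members lay mostly on the higher side. Of 4 tested seed storage markers, 3 were also higher in H89C11-7, 2 in H89C23-10 and 3 in H89C4-7, and of 5 shoot markers 4, 2 and 3 were lower. Of 5 root markers, 3 were lower in H89C11-7, none was called in H89C23-10 by limma, and in H89C4-7 4 were lower and SCR was higher (log2 change 0.41). COBL9, EXPA7 and CASP1 changed most in H89C4-7 (-1.02, -0.97 and -0.85). The summed root markers were 2404 to 2955 in Col, 2275 to 2389 in H89C11-7, 2550 to 2973 in H89C23-10 and 2450.0 to 2688 in H89C4-7. Their part in these calls was not tested.

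The calls in the NEET lines were mostly lower. In NEET10-10, 11 of 36 genes were called, 1 higher and 10 lower, where 30.3% of all genes were called (15.6% higher and 14.7% lower), and the median log2 change was -0.105. In NEET5-4, 11 were called, 3 higher and 8 lower, against 31% of all genes (14.1% higher and 16.9% lower), with a median of -0.046. In NEET11-9, 4 were called, 1 higher and 3 lower, against 10.9% of all genes (4.49% higher and 6.44% lower), with a median of -0.028. In NEET10-10 all 5 shoot markers were lower than in Col as well. Of the 5, 2 were lower in NEET5-4 (LHCB3 and RCA) and 1 in NEET11-9 (LHCB3). The part of these markers in the lower calls of the 3 lines was not tested. All 6 comparisons share the 3 Col libraries, so their calls are not independent of each other. Across the 7 groups, 34 of 36 genes differed by limma's F test, where 85% of all genes did.

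**Figure D1:**
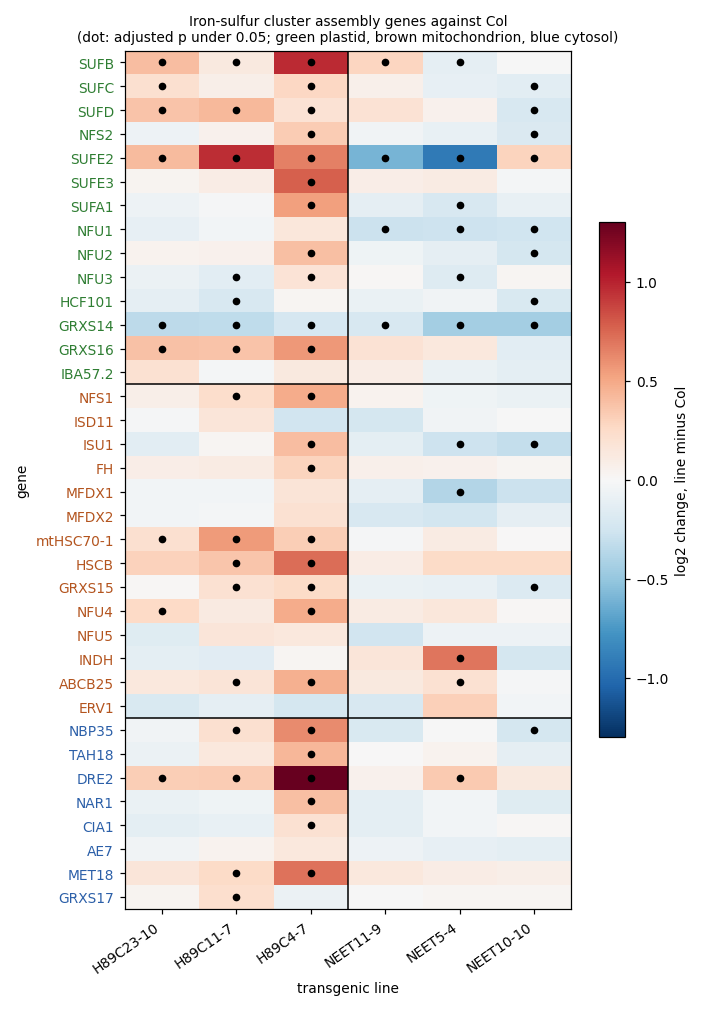
Log2 change against Col (colour) of each tested gene (rows, with the name coloured by compartment) in each of the 6 lines (columns); dots mark an adjusted p under 0.05. H89C4-7 holds 24 higher calls and NEET10-10 holds 10 lower calls, and GRXS14 is lower in each column.

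The 3 compartments did not separate by direction in H89C4-7. The counts of higher and lower calls there were 10 and 1 of 14 plastid genes, 8 and 0 of 14 mitochondrial genes, and 6 and 0 of 8 cytosolic genes, with median log2 changes of 0.302, 0.27 and 0.411. In H89C11-7 they were 4 and 3 for the plastid, 5 and 0 for the mitochondrion and 4 and 0 for the cytosol, with medians of 0.052, 0.14 and 0.171. In H89C23-10 they were 5 and 1, 2 and 0, and 1 and 0. The lower calls of the NEET lines were mostly plastid genes, with 7 of 10 in NEET10-10, 3 of 3 in NEET11-9 and 6 of 8 in NEET5-4, where plastid genes made up 14 of the 36 tested. No difference between compartments was tested.

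**Figure D2:**
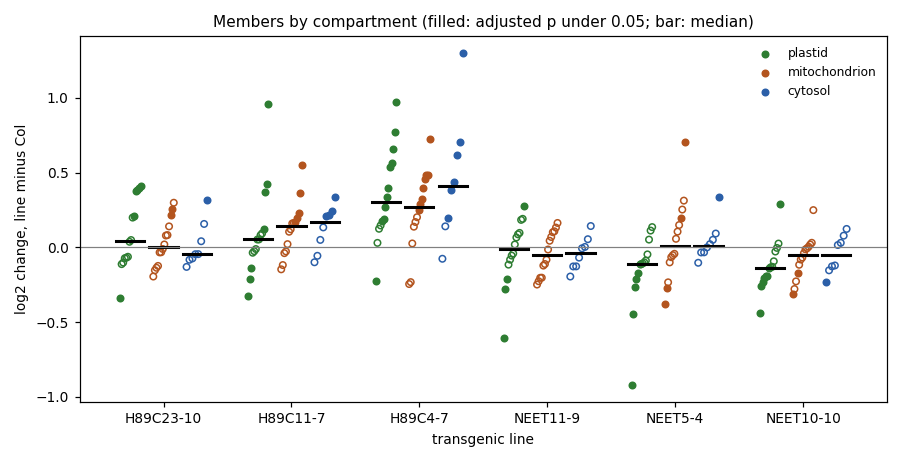
Log2 change against Col (y axis) of each tested gene in each line (x axis), coloured by compartment; filled points have an adjusted p under 0.05 and bars mark the median of a compartment. The medians in H89C4-7 are 0.302, 0.27 and 0.411, and no median reaches 0.2 in another line.

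The plastid scaffold is made of SUFB, SUFC and SUFD, of which SUFC is the ATPase. SUFB (AT4G04770) had normalized counts of 2642, 2920 and 2716 in Col, 5333, 5542 and 5368 in H89C4-7, 3549, 3596 and 3769 in H89C23-10 and 3030.0, 3045 and 2949 in H89C11-7. Every H89C library lay above every Col library, by a log2 change of 0.97 ± 0.0423 (SE, adjusted p = 2.48e-16) in H89C4-7, 0.40 ± 0.0423 (adjusted p = 1.24e-07) in H89C23-10 and 0.13 ± 0.0423 (adjusted p = 0.0215) in H89C11-7. SUFB was also higher in NEET11-9, at 3326, 3385 and 3324 (log2 change 0.28, adjusted p = 4.51e-05). In NEET5-4 it was 2586, 2488 and 2567, below every Col library (log2 change -0.11, adjusted p = 0.0413). The call in H89C11-7 was lost without Col replicate 1 or 3 or H89C11-7 replicate 1 or 2 (adjusted p = 0.0616 to 0.0772). The call in NEET5-4 was lost without Col replicate 2 or 3 or any NEET5-4 library (adjusted p = 0.0502 to 0.216). With all libraries, the NEET5-4 call was also lost by limma after TMM scaling (adjusted p = 0.0573) and by edgeR (adjusted p = 0.0632).

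SUFD (AT1G32500) had 1470, 1854 and 1775 in Col, 2266, 2264 and 2286 in H89C11-7, 2332, 2168 and 2086 in H89C23-10 and 1985, 1880.1 and 1929 in H89C4-7. All 9 H89C libraries lay above Col, but the order of the lines was not that of SUFB, since H89C4-7 was the lowest of the 3 (log2 change 0.19, adjusted p = 0.00952, and 0.118 without Col replicate 1) and H89C11-7 the highest (0.43, adjusted p = 7.06e-06). In NEET10-10 SUFD was 1402, 1511 and 1492 (log2 change -0.20, adjusted p = 0.0147), which overlapped Col through Col replicate 1. SUFC (AT3G10670) had 1168, 1151 and 1167 in Col, 1444, 1429 and 1329 in H89C4-7, 1337, 1350.0 and 1336 in H89C23-10 and 1030.0, 1075 and 1058 in NEET10-10. It was higher in the first of these lines (log2 change 0.27, adjusted p = 4.51e-05) and in H89C23-10 (0.21, adjusted p = 0.0039), and lower in NEET10-10 (-0.14, adjusted p = 0.0357). The SUFC call in NEET10-10 was lost by DESeq2 (adjusted p = 0.0595). By limma it was lost without any Col library (0.0509 to 0.0726) or NEET10-10 replicate 1 or 3 (0.0979 and 0.0678).

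Sulfur for the plastid scaffold comes from the cysteine desulfurase NFS2 with its SUFE activators. SUFE2 (AT1G67810) had 199, 220 and 233 in Col, 419, 407 and 441 in H89C11-7, 366, 320.1 and 345 in H89C4-7, and 280, 270 and 319 in H89C23-10. In the NEET lines it had 235, 289 and 275 in NEET10-10, 147, 147 and 134 in NEET11-9 and 105, 118 and 120 in NEET5-4. All groups except Col lay outside the range of Col, in both directions: the log2 change was 0.96 ± 0.094 in H89C11-7 (adjusted p = 1.51e-08), 0.66 in H89C4-7 (1.05e-06), 0.41 in H89C23-10 (0.00225) and 0.29 in NEET10-10 (0.0209), against -0.61 in NEET11-9 (6.19e-05) and -0.92 ± 0.094 in NEET5-4 (1.57e-08). SUFE3 (AT5G50210), which joins a SUFE domain to quinolinate synthase, was called in H89C4-7, at 1396, 1515 and 1414 against 854, 817 and 858 in Col (log2 change 0.77 ± 0.0544, adjusted p = 3.85e-12). NFS2 (AT1G08490) had 757, 664 and 684 in Col, 908, 874 and 870 in H89C4-7 (log2 change 0.33, adjusted p = 1.61e-05) and 618, 650 and 574 in NEET10-10 (-0.19, adjusted p = 0.0128).

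**Figure D3:**
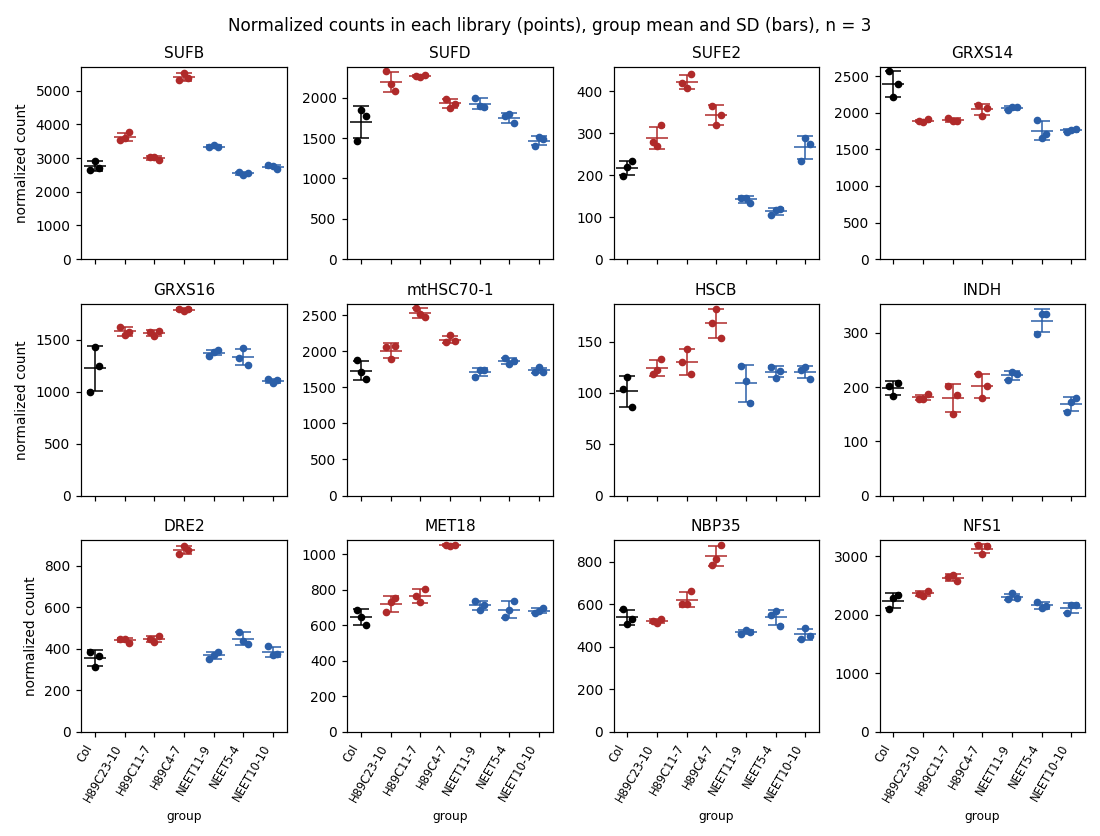
Normalized count (y axis, linear from 0) of selected genes in each of the 7 groups (x axis); points are libraries, and bars give the group mean and SD, n = 3. SUFE2 lies above Col in the H89C lines and below it in NEET11-9 and NEET5-4, and GRXS14 is below Col in all 6 lines.

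Among the plastid carriers, GRXS14 (AT3G54900), a monothiol glutaredoxin, was lower than in every Col library in all 18 transgenic libraries. It had 2575, 2212 and 2393 in Col, 1928, 1886 and 1892 in H89C11-7, 1885, 1872 and 1911 in H89C23-10 and 2114, 1964 and 2067 in H89C4-7. In the NEET lines it had 1737, 1766 and 1775 in NEET10-10, 2034, 2081 and 2083 in NEET11-9 and 1906, 1655 and 1711 in NEET5-4. The log2 changes were -0.33, -0.34 and -0.22 in the H89C lines (adjusted p = 2.36e-05, 3.7e-05 and 6.77e-04) and -0.44, -0.21 and -0.45 in the NEET lines (5.32e-07, 0.0102 and 2.1e-07). Because the lines share the same 3 Col libraries, the 6 values rest on one set of control values, and the call in NEET11-9 was lost without Col replicate 1 (log2 change -0.16, adjusted p = 0.057). GRXS16 (AT2G38270), the other plastid monothiol glutaredoxin, went the other way in the H89C lines, at 1575, 1535 and 1589 in H89C11-7, 1625, 1545 and 1580 in H89C23-10 and 1802, 1776 and 1800.0 in H89C4-7 against 999, 1430.0 and 1253 in Col. Its log2 changes were 0.37, 0.38 and 0.56 (adjusted p = 4.39e-04, 6.08e-04 and 4.67e-07). None of the NEET lines was called with all libraries. Without Col replicate 1, GRXS16 was called lower in NEET10-10 (-0.28, adjusted p = 2.99e-04). Without Col replicate 2 it was called higher in NEET11-9 and NEET5-4 (0.30 and 0.25, adjusted p = 0.00356 and 0.00499).

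The NFU proteins carry clusters from the scaffold. NFU2 (AT5G49940) had 1342, 1381 and 1172 in Col, 1652, 1739 and 1720 in H89C4-7 (log2 change 0.40, adjusted p = 3.59e-06) and 1010, 1179 and 1126 in NEET10-10 (-0.23, adjusted p = 0.00527). NFU3 (AT4G25910) had 1023, 1010.1 and 1108 in Col, 1198, 1172 and 1176 in H89C4-7 (0.18, adjusted p = 0.00282), 947, 947 and 951 in H89C11-7 (-0.14, adjusted p = 0.0253) and 926, 930.2 and 935 in NEET5-4 (-0.17, adjusted p = 0.00944). NFU3 was thus called in opposite directions within the H89C lines. Its H89C11-7 call was lost by DESeq2 (adjusted p = 0.0683). By limma it was lost without Col replicate 3 (adjusted p = 0.142) or any H89C11-7 library (0.0558 to 0.0607). NFU1 (AT4G01940) was called in the NEET lines alone among the 6 comparisons, with log2 changes of -0.26, -0.28 and -0.27 in NEET10-10, NEET11-9 and NEET5-4 (adjusted p = 0.0203, 0.0297 and 0.0151), but each was lost without Col replicate 2 (adjusted p = 0.071, 0.0777 and 0.0558). SUFA1 (AT1G10500), an A-type carrier, had 548, 455 and 530 in Col, 780, 737 and 702 in H89C4-7 (0.54, adjusted p = 2.24e-07) and 462, 457 and 404 in NEET5-4 (-0.21, adjusted p = 0.0222), where 1 of 3 libraries lay below Col. HCF101 (AT3G24430), which serves photosystem I, was lower in H89C11-7 and NEET10-10 (log2 change -0.21 and -0.19, adjusted p = 0.00339 and 0.0087). IBA57.2 was called in none of the 6 lines with all libraries, but without Col replicate 1 it was called lower in H89C11-7, NEET10-10 and NEET5-4 (log2 change -0.18, -0.29 and -0.24, adjusted p = 0.0202, 7.25e-04 and 0.00273). Without Col replicate 3 it was called higher in H89C23-10 and H89C4-7 (0.29 and 0.22, adjusted p = 0.0174 and 0.0309), and without Col replicate 2 higher in H89C23-10 (0.26, adjusted p = 0.0395).

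In the mitochondrion, sulfur comes from NFS1 and the clusters are built on ISU1. NFS1 (AT5G65720) had a log2 change of 0.48 in H89C4-7 (adjusted p = 8.68e-10) and 0.23 in H89C11-7 (2.19e-04). ISU1 (AT4G22220) had 1843, 1230 and 1329 in Col, 1889, 1967 and 1855 in H89C4-7 (log2 change 0.40, adjusted p = 1.97e-04), 1190.2, 1159 and 1140 in NEET10-10 (-0.31, adjusted p = 0.00612) and 1174, 1234 and 1181 in NEET5-4 (-0.27, adjusted p = 0.0149). Col replicate 1 was far above the other 2 Col libraries for ISU1, and without it the NEET5-4 call was lost (log2 change -0.10, adjusted p = 0.144), while ISU1 was then called higher in H89C11-7 (0.20, adjusted p = 0.002). Frataxin, encoded by FH, was called in H89C4-7 (0.29, adjusted p = 0.0334). The FH call was lost by edgeR (adjusted p = 0.0881) and DESeq2 (0.0862). By limma it was lost without Col replicate 3 (0.209) or H89C4-7 replicate 1 or 2 (0.0964 and 0.0637). ISD11, MFDX2, NFU5 and ERV1 were called in no line by limma with all libraries. edgeR called ISD11 lower in H89C4-7 (-0.30, adjusted p = 0.0371) and ERV1 higher in NEET5-4 (0.35, adjusted p = 0.0414). By limma without Col replicate 1, MFDX2 was called lower in NEET5-4 (-0.32, adjusted p = 0.0465) and ERV1 lower in H89C4-7 (-0.34, adjusted p = 0.0426). Without Col replicate 3, ISD11 was lower in H89C4-7 (-0.34, adjusted p = 0.0183) and MFDX2 higher (0.29, adjusted p = 0.0435). ERV1 was then higher in NEET5-4 (0.40, adjusted p = 0.042). ISD11 was also lower in H89C4-7 without H89C4-7 replicate 3 (-0.31, adjusted p = 0.0403).

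The largest mitochondrial changes in the H89C lines were those of 2 chaperone genes. HSCB (AT5G06410), the J-domain partner, had 104, 116 and 85.8 in Col, 168, 182 and 154 in H89C4-7 (log2 change 0.72 ± 0.127, adjusted p = 1.96e-05) and 130, 143 and 118 in H89C11-7 (0.36, adjusted p = 0.0271). Its H89C11-7 call was lost by edgeR (adjusted p = 0.0666) and DESeq2 (0.0922). By limma it was lost without Col replicate 3 (0.158) or H89C11-7 replicate 1 or 2 (0.0587 and 0.122). mtHSC70-1 (AT4G37910) had 1872, 1706 and 1616 in Col, 2603, 2516 and 2473 in H89C11-7 (0.55 ± 0.051, adjusted p = 5.94e-09), 2121, 2217 and 2135 in H89C4-7 (0.32, adjusted p = 5.56e-06) and 2060, 1887 and 2069 in H89C23-10 (0.21, adjusted p = 0.00347). All libraries of the 3 lines lay above Col.

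Of the mitochondrial carriers, INDH (AT4G19540), which delivers clusters to respiratory complex I, was called only in NEET5-4 among the 6 lines. It had 298, 335 and 334 there against 202, 183 and 208 in Col (log2 change 0.70 ± 0.103, adjusted p = 6.33e-06), and it kept its call under every alternative run. The ferredoxin MFDX1 (AT4G05450) was lower in the same line, at 98.6, 90.02 and 101 against 122, 121 and 135 (-0.38 ± 0.115, adjusted p = 0.0128). GRXS15 (AT3G15660) had 764, 786 and 851 in Col, 931, 991 and 937 in H89C4-7 (0.25, adjusted p = 9.41e-04), 920.1, 892 and 932 in H89C11-7 (0.19, adjusted p = 0.0157) and 643, 734 and 753 in NEET10-10 (-0.17, adjusted p = 0.0347). NFU4 was higher in H89C4-7 (0.49, adjusted p = 9.94e-06) and H89C23-10 (0.26, adjusted p = 0.0224). The exporter ABCB25 (AT5G58270), known for the link between mitochondrion and cytosol, was higher in H89C4-7 (0.46, adjusted p = 9.2e-08), NEET5-4 (0.20, adjusted p = 0.00896) and H89C11-7 (0.17, adjusted p = 0.0191).

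The cytosolic genes held the largest change of all 36 genes in the 6 comparisons with Col. DRE2 (AT5G18400), which with TAH18 passes electrons to the pathway, had 387, 314 and 368 in Col and 858, 894 and 876 in H89C4-7, a log2 change of 1.301 ± 0.0734 (adjusted p = 4.76e-14). It had 448, 433 and 462 in H89C11-7 (0.33, adjusted p = 8.24e-04), 449, 450.0 and 430 in H89C23-10 (0.32, adjusted p = 0.00249) and 484, 438 and 426 in NEET5-4 (0.34, adjusted p = 8.1e-04). None of these 12 libraries overlapped Col. MET18 (AT5G48120), of the targeting complex, had 688, 649 and 601 in Col, 1053, 1045 and 1052 in H89C4-7 (0.70 ± 0.0617, adjusted p = 2.68e-10) and 763, 729 and 805 in H89C11-7 (0.25, adjusted p = 0.00272). NBP35 (AT5G50960), the scaffold, had 579, 510 and 530 in Col, 787, 814 and 879 in H89C4-7 (0.61, adjusted p = 1.19e-08), 602, 604 and 664 in H89C11-7 (0.21, adjusted p = 0.0157) and 437, 489 and 453 in NEET10-10 (-0.23, adjusted p = 0.0102). TAH18, NAR1 and CIA1 were called in H89C4-7 alone (log2 change 0.44, 0.39 and 0.19), and for CIA1 the libraries overlapped Col. GRXS17 was called in H89C11-7 (0.21, adjusted p = 0.00735), and AE7 in no line.

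The promoters of the cytosolic genes are shown because 4 of 8 hold the site II motif, TGGGCC or TGGGCT, within 250 bases before the annotated start, on either strand. Of all 27443 promoters of protein-coding genes 19.2% hold it, as do 3 of 15 plastid (20%) and 3 of 15 mitochondrial genes (20%). The sequences are from the TAIR10.1 reference, 5′ to 3′ on the gene's strand, with matches on either strand in capitals. NBP35 (chr5:20733886-20734135, plus strand) has 2 matches, DRE2 (chr5:6095081-6095330, minus strand) 1, AE7 (chr1:25599215-25599464, plus strand) 1 and MET18 (chr5:19514896-19515145, minus strand) 3. NBP35, DRE2 and MET18 were called in H89C4-7 and AE7 was not. Of the cytosolic genes without the motif, TAH18, NAR1 and CIA1 were called there too and GRXS17 was not. A match describes these letters and says nothing of a factor. Over all 38 genes, 10 (26.3%) hold site II. The other motif searched, the G-box (CACGTG), is in 1 of 15 plastid, 1 of 15 mitochondrial and 0 of 8 cytosolic genes, against 6.49% of all promoters. Site II in the cytosolic genes was thus picked for display from 2 motifs and 3 compartments.
NBP35: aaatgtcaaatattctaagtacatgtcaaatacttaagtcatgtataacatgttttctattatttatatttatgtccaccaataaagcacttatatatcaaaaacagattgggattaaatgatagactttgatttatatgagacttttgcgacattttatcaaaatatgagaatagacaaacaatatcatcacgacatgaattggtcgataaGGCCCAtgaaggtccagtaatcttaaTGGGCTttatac
DRE2: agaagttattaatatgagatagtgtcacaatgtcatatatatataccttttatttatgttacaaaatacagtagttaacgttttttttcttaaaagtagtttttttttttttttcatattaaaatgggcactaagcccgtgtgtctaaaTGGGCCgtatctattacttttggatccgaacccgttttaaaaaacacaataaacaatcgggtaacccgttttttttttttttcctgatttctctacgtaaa
AE7: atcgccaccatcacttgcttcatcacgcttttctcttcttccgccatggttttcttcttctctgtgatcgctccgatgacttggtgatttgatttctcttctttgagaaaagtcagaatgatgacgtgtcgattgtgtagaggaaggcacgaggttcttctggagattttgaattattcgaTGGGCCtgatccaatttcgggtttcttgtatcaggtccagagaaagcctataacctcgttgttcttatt
MET18: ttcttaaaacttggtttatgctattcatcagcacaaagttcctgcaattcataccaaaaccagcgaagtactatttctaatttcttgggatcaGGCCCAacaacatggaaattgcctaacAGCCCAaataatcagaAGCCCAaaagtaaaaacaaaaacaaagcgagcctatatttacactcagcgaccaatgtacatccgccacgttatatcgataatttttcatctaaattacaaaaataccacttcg

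H89C lines were next set against NEET lines as constructs. The mean of the 3 H89C lines was called above Col for 18 genes and below for 1 of 36. Of all genes 49.8% were called there, 26% higher and 23.8% lower. The mean of the 3 NEET lines was above for 1 and below for 5, where 25.6% of all genes were called, 12.3% higher and 13.3% lower. These tests leave out the spread between lines. With 1 mean per line, 3 against 3, limma called none of the 36 genes, and 0% of all 20699. The median log2 difference, H89C minus NEET, was 0.238, and 34 of 36 were positive, where the median of all genes was 0.008 and 10595 of 20699 were positive. Without line H89C4-7 the median of the 36 genes was 0.128. An unadjusted p under 0.05 was found for 5 genes, SUFE2 (log2 difference 1.09 ± 0.322), GRXS16 (0.38), mtHSC70-1 (0.33), GRXS15 (0.27) and NFU1 (0.27), each with an adjusted p of 0.438, and for 2350 of all genes. The count called by edgeR or DESeq2 was not computed for line means, which are not counts.

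H89C4-7 and NEET5-4 had AtNEET levels of 15072 to 16707 and 17667 to 18723. Between them 31 of 36 genes were called, 29 higher in H89C4-7 and 2 lower, where 67.4% of all genes were called, 34.5% higher and 32.8% lower. The median log2 difference was 0.382. SUFE2 differed by 1.58 ± 0.094 (adjusted p = 9.26e-14) and SUFB by 1.09 ± 0.0423 (adjusted p = 1.48e-17). This compares 1 line with 1 line, so construct and line cannot be told apart. In the same comparison 4 of 5 root markers were lower and 1 higher in H89C4-7, 3 of 4 tested seed markers were higher, and of 5 shoot markers 2 were higher and 3 lower. Their part in the result was not tested.

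Lines of 1 construct also differed among themselves. H89C4-7, H89C11-7 and H89C23-10, which descend in that order in AtNEET, also descended in that order for 20 of 36 genes (55.6%), against 4635 of all tested genes (22.4%). The order was read from group means, whether or not a gene was called, and AE7 and MFDX2, called in no line, are among the 20. Of the 6 genes called higher in all 3 H89C lines, DRE2 had this order. SUFB, SUFD, SUFE2, GRXS16 and mtHSC70-1 did not. H89C4-7 was the highest of the 7 groups for 26 of 36 genes, against 32.6% of all genes. NEET10-10 was the lowest for 16 of 36, against 13.2% of all genes. The median SD of the 36 genes was 0.0839 between libraries of a group and 0.183 between group means on the log2 scale, and over all tested genes it was 0.119 and 0.231.

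Per kilobase of exon, plastid genes were the most abundant in Col. The median was 836 normalized counts per kb for the plastid, 186 for the mitochondrion and 267 for the cytosol. GRXS14 was highest at 2160 ± 164 (SD, n = 3), followed by ISU1 at 1437 ± 323 and NFU2 and SUFB at 1344 and 1314, which lie within the SD of ISU1. SUFD and SUFC had 887 ± 106 and 785 ± 6.74, and HSCB was lowest at 89.5 ± 13.2. In H89C4-7 the medians were 977, 220 and 336.

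**Figure D4:**
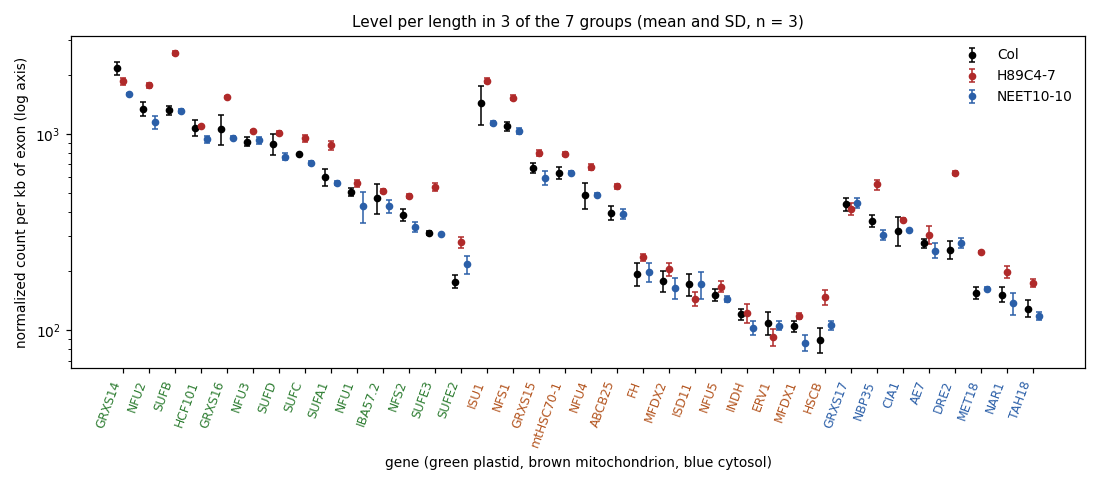
Normalized count per kb of exon (log axis) of each tested gene in Col, H89C4-7 and NEET10-10, with names coloured by compartment; points are means and bars the SD, n = 3. Plastid genes have the highest median, 836 in Col and 977 in H89C4-7.

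Of 12 further genes of the pathway, 9 were tested, since ISU3 and AT2G36260 were at 0 in all libraries and AT3G09380 in all but 1. In H89C4-7 5 were higher and 2 lower, in H89C11-7 2 and 1, and in H89C23-10 1 and 0. In NEET10-10 and NEET5-4 0 were higher and 3 lower each, and in NEET11-9 limma called none. The shares called were 77.8%, 33.3% and 11.1% in the H89C lines as listed, where 66.6%, 37.7% and 22.1% of all genes were called. In NEET10-10 and NEET5-4 the share was 33.3% each, against 30.3% and 31% of all genes. In NEET11-9 it was 0%, against 10.9%. The chaperone mtHSC70-2 (AT5G09590), which shares 99% identity over 602 bases with AT4G32208 so that reads may be split, was higher in the H89C lines (log2 change 0.53 in H89C11-7, 0.33 in H89C23-10 and 0.48 in H89C4-7) and lower in NEET10-10 (-0.35) and NEET5-4 (-0.70). The A-type carrier AT2G16710 rose in H89C4-7 (0.69 ± 0.116, adjusted p = 1.19e-05). AT3G50845, related to AE7, fell there, with 29.0, 28.3 and 22.3 against 82.2, 52.5 and 63.7 in Col (-1.27 ± 0.2, adjusted p = 4.4e-06).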

How the data were processed

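RNA from complete seedlings was sequenced in 21 libraries, 3 for each of 7 groups taken from the labels. The submitters' processing notes list STAR 2.4.0.1, FastQC 0.11.7, DESeq2 1.20.0 and the TAIR10 build. How reads were counted, on which strand and with what treatment of multiple hits is not stated in the sources used here. The deposited values are a normalized signal: the authors divided gene counts by 1 size factor per library. Dividing by the smallest step gave whole reads for 100% of values within 0.001. Totals were 8.24 to 24.68 M reads per library, which limits the precision of low genes.

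The 20699 genes that reached a normalized count of 10 in 3 or more libraries were tested by limma-trend (limma 3.58.1, R 4.3.3) on log2(value + 1), which understates changes of low genes, with 1 mean per group, 14 residual degrees of freedom and Benjamini-Hochberg adjustment over all tested genes. H89C and NEET lines were compared on 6 line means. Alternatives were edgeR 4.0.16 and DESeq2 1.42.0 on the recovered reads, TMM scaling, a pseudocount of 5, no filter, a replicate block and left-out libraries or lines. Against Col, edgeR called 13520 genes in H89C4-7, where limma called 13783. The scripts were tested on simulated data. Overlaps, lengths and promoters came from TAIR10.1, used for gene models only.

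The labels do not say that libraries came from separate cultures, so p-values measure the spread between libraries, which may be technical. Members were picked by locus identifier and not by measured values, but members, lists and tests were chosen with earlier results of these data known. All 38 members are named, with values in every library of Col and of the lines described for the 2 largest called changes per compartment and construct, for members called in opposite directions in 2 lines and for those called alike in all 6. Any other per-library values were added after the data were seen.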

Additional observations from a re-analysis of the deposited data

Results flagged for a closer look

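In 11 genes, calls against Col went in opposite directions in 2 lines, and the 2 lines were then compared with each other by limma, over 15 pairs of lines. The largest such log2 difference per gene follows, and all 28 direct comparisons of lines with opposite calls were called. SUFE2 was 1.88 ± 0.094 higher in H89C11-7 than in NEET5-4 (adjusted p = 8.45e-15), and SUFD was 0.63 ± 0.0626 higher in H89C11-7 than in NEET10-10 (adjusted p = 1.3e-08). H89C4-7 was above NEET5-4 by 1.09 for SUFB, 0.75 for SUFA1 and 0.35 for NFU3. H89C4-7 was above NEET10-10 by 0.85 for NBP35, 0.71 for ISU1, 0.63 for NFU2, 0.53 for NFS2, 0.43 for GRXS15 and 0.41 for SUFC. The lines were chosen for their opposite calls in the same libraries, which all but fixed that their direct comparison would be called. The 28 calls, their adjusted p-values and these sizes are therefore descriptions and add no support to the calls against Col. The 11 genes are 30.6% of the 36 tested. How many of all tested genes had opposite calls in 2 lines was not counted, so this share has no background to be set against. Of all tested genes 66.6% were called against Col in H89C4-7, 30.3% in NEET10-10 and 31% in NEET5-4.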

How the results depend on the processing

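Of the calls against Col, 10 of 16 in H89C11-7, 8 of 9 in H89C23-10, 22 of 25 in H89C4-7, 2 of 11 in NEET10-10, 2 of 4 in NEET11-9 and 4 of 11 in NEET5-4 were kept under every alternative run, as were 13 of 19 for the mean of the H89C lines, 2 of 6 for the mean of the NEET lines and 27 of 31 between H89C4-7 and NEET5-4. The calls kept were GRXS14 and ISU1 in NEET10-10, SUFB and SUFE2 in NEET11-9, and SUFE2, GRXS14, INDH and DRE2 in NEET5-4. Calls lost under at least 1 alternative were SUFB, NFU3, HSCB, GRXS15, ABCB25 and NBP35 in H89C11-7, NFU4 in H89C23-10, SUFD, FH and CIA1 in H89C4-7, NFU1 and GRXS14 in NEET11-9, SUFB, SUFA1, NFU1, NFU3, ISU1, MFDX1 and ABCB25 in NEET5-4, and the other 9 in NEET10-10. The replicate numbers do not pair the libraries: of 63 same-numbered pairs 0 had a correlation over 0.1, and 7 of 21 libraries correlated best with their own number. With a replicate block the counts of called genes were 16, 9, 25, 11, 4 and 11 as before, and 5 in place of 6 for the mean of the NEET lines. The count in NEET11-9 ranged from 3 to 8 when 1 library was left out, the highest without Col replicate 2, and that in NEET10-10 ranged from 7 to 9, the lowest without NEET10-10 replicate 3. The mean of the NEET lines had 10 called genes without line NEET11-9. SUFA1 turned to a log2 change of -0.0408 (adjusted p = 0.634) for the mean of the H89C lines without line H89C4-7. There SUFE3, NFU2, GRXS15, NBP35 and TAH18 lost their calls (adjusted p = 0.303, 0.494, 0.13, 0.294 and 0.782) and HCF101 gained one (-0.16, adjusted p = 0.00992). The H89C-mean call of ISU1 was gained without Col replicate 1 (0.27, adjusted p = 6.04e-06); over the comparisons with Col that leave-out lost 18 calls and gained 13. The cause was not tested in these cases. With Col replicate 1 and NEET10-10 replicate 1 both left out, an alternative chosen after seeing the data, the counts in the order above were 17, 9, 26, 8, 5 and 13. edgeR called 15, 9, 24, 10, 5 and 11, and DESeq2 14, 9, 23, 9, 5 and 10. Without the filter, limma called 1 gene of 26740 between the lines of the constructs, which was not among the 38. Depth limits the reading of HSCB, MFDX1 and other low genes, and of the genes listed at 0.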
